A study of Nannochloropsis oceanica strain IMET1 with 15 samples.

Results

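NoMSR (NO21G00950) is annotated as a peptide methionine sulfoxide reductase of the oleaginous microalga Nannochloropsis oceanica IMET1. It is 1 of the 10493 genes with values here, and it was taken by its identifier and read beside NO21G00940, the gene it overlaps in position. Methionine sulfoxide reductases return oxidized methionine residues of proteins to methionine and so act in protein repair. They commonly draw their electrons from thioredoxin, the small redox protein that chloroplasts reduce in the light. In algae and plants, excess light is a known source of the reactive oxygen species that oxidize methionine.

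The RNA-seq data cover 15 libraries, 3 biological replicates of each of 5 strains, all grown with air bubbling under high light and collected on day 7. Lines M1 and M2 are knockouts of NO08G00280, a candidate DNA N6-adenine (6mA) methyltransferase. Lines M3 and M4 are knockouts of NO06G02500, a candidate 6mA demethylase. They were compared with the unedited wild type (WT). All 4 lines were made with a Cas9 vector that carries a zeocin-resistance gene, came from resistant colonies and thus stand for 1 transformant each, whereas the WT was not transformed. A difference between a line and the WT therefore cannot be told apart from other features of that transformant or of its selection. The transcript level of the edited genes does not check the knockouts, since an edit can leave the transcript in place. NO08G00280 averaged 8.59 TPM in M1 and 7.26 TPM in M2, against 8.21 TPM in the WT, and NO06G02500 averaged 71.8 TPM in M3 and 55.9 TPM in M4, against 56.6 TPM in the WT. Values are TMM-normalized TPM throughout, that is, a level per length of gene as a share of all transcripts of the library, after a scaling between libraries.

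NoMSR lies on chromosome 21 from 308679 to 310438, on the + strand of the IMET1v2 genome, a span of 1760 bases. NO21G00940 lies from 307804 to 308798 on the - strand, a span of 995 bases. The genes stand head to head and share 120 bases at their 5′ ends, which is 6.82% of the span of NoMSR and 12.1% of that of NO21G00940. Such a layout is not rare in this compact genome, where 1334 pairs of genes overlap, 1323 of them on opposite strands and 526 of them head to head. The libraries were not made with a kit that marks strand, so reads from the shared stretch cannot be assigned to either gene. Downstream, NoMSR ends 28 bases before NO21G00960. On the other side, NO21G00930 begins 14 bases beyond the end of NO21G00940, on the same strand as it.

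**Figure D1:**
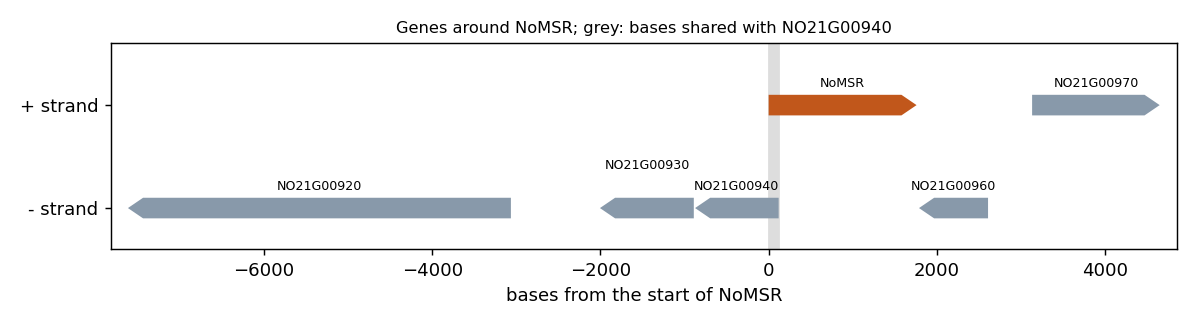
Position and direction of genes around NoMSR, in bases from its start, with the + strand above the - strand. Arrows span each gene, and the grey band marks the 120 bases that NoMSR and NO21G00940 share.

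NoMSR was an abundant transcript, ahead of 74.1% of all genes in the library where it ranked lowest and of 92.5% where it ranked highest. Its read coverage was 197 to 621 per base over the 15 libraries, with a median of 387. NO21G00940 was the weaker member of the pair, with a coverage of 51.8 to 126 and a median of 65.8, so its values rest on fewer reads.

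In M2, NoMSR stood at 131, 131 and 136 TPM, against 249.6, 247 and 201 TPM in the WT. The M2 libraries lay close together and all of them lay below every WT library. Of the 9440 genes tested, 26.6% had all 3 M2 libraries below all 3 WT libraries. The mean of 133 ± 2.86 TPM in M2 was 57.0% of the mean of 233 ± 27.6 TPM in the WT (SD, n = 3 each). NoMSR fell in M2 by 0.80 on the log2 scale (SE 0.16, adjusted p = 0.00221 by limma), with a 95% interval of -1.14 to -0.46. It was one of 18.2% of genes that fell in M2 by this test.

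In M4, NoMSR stood at 107, 91.3 and 126 TPM, again below every WT library. All 3 M4 libraries lay below all 3 WT libraries for 15.1% of the genes tested. The mean was 108 ± 17.3 TPM in M4, which is 46.5% of the WT mean (SD, n = 3). NoMSR fell in M4 by 1.10 on the log2 scale (SE 0.16, adjusted p = 0.00738 by limma), with an interval of -1.44 to -0.76. Only 3.69% of genes fell in M4 by this test, and 2.33% had a more negative log2-fold change than NoMSR. In M2, 8.07% had a more negative change. Without replicate 3 of M2 and replicate 2 of M4 together, both of which list the nearby gene NO21G00930 at 0, the change in M4 was -0.99 and no longer passed (adjusted p = 0.0556).

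The other line of each knockout gave smaller differences. NoMSR stood at 238, 184 and 170.1 TPM in M1, a mean of 197 ± 36.0 TPM (SD, n = 3). It stood at 180.3, 205 and 249.9 TPM in M3, a mean of 212 ± 35.3 TPM (SD, n = 3). Both ranges overlapped that of the WT. NoMSR changed by -0.24 on the log2 scale in M1 (SE 0.16, adjusted p = 0.443, interval -0.58 to 0.10) and by -0.14 in M3 (SE 0.16, adjusted p = 0.649, interval -0.48 to 0.20). Leaving out 1 library moved the change in M1 to between -0.39 (without replicate 1 of M1) and -0.14 (without replicate 3 of M1), and that in M3 to between -0.27 (without replicate 3 of M3) and -0.03 (without replicate 1 of M3). Neither test passed, and the lower ends of the intervals leave room for a decrease smaller than the change in M4. Few genes fell in these lines, 1.13% in M1 and 0.339% in M3.

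**Figure D2:**
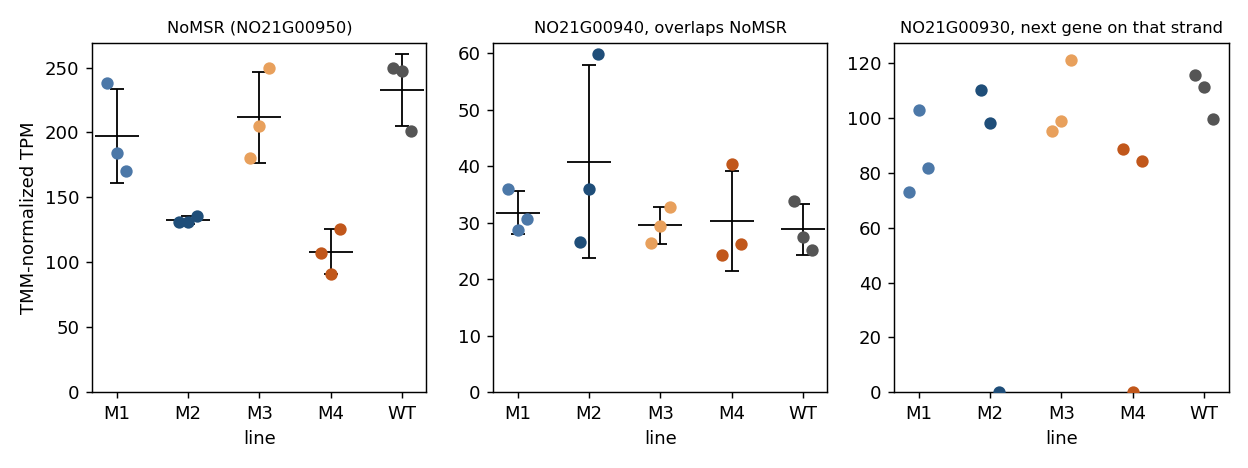
Level in TMM-normalized TPM of NoMSR, NO21G00940 and NO21G00930 in each library (points) of M1, M2, M3, M4 and the WT, with the mean and SD of 3 libraries (black lines; not drawn for NO21G00930, which 2 libraries list at 0). All libraries of M2 (131 to 136) and M4 (91.3 to 126) lie below the WT libraries for NoMSR, whereas NO21G00940 overlaps the WT in every line.

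Since M1 and M2 carry edits of the same gene, as do M3 and M4, the lines of a pair were compared directly. NoMSR was lower in M2 than in M1 by 0.55 on the log2 scale (SE 0.16, adjusted p = 0.0217, interval -0.89 to -0.21). This call was lost without replicate 1 of M1 (-0.41, adjusted p = 0.0935), replicate 1 of M2 (-0.54, adjusted p = 0.0632) or replicate 2 of M2 (-0.55, adjusted p = 0.0596). NoMSR was lower in M4 than in M3 by 0.96 (SE 0.16, adjusted p = 0.00199, interval -1.30 to -0.62). These comparisons share no library, and 14.1% of genes were lower in M2 than in M1 and 13.9% lower in M4 than in M3. NoMSR was one of the 45 genes, 0.477% of those tested, that were lower in both. Lines with the same gene edited thus differed beyond the spread between replicates in M4 against M3. In M2 against M1 the difference passed by a call that hung on single libraries.

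For the knockouts taken as pairs, the mean of M1 and M2 was 0.52 below the WT on the log2 scale (SE 0.13, adjusted p = 0.0189). The pooled change of M1 and M2 did not pass without replicate 1 of the WT (-0.47, adjusted p = 0.0645) or without replicate 2 of the WT (-0.47, adjusted p = 0.0868), and 12.1% of genes fell in it. The mean of M3 and M4 was 0.62 below the WT (SE 0.13) with an adjusted p of 0.133, a comparison in which 0.0847% of genes fell. In ascending order the means were 108 TPM in M4, 133 in M2, 197 in M1, 212 in M3 and 233 in the WT. M3 and M1 overlapped each other and the WT. At the low end, the difference of -0.31 of M4 from M2 did not pass (SE 0.16, adjusted p = 0.131, interval -0.64 to 0.03).

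By the thresholds that the study used for differentially expressed genes, an adjusted p of at most 0.001 and a change of more than 2-fold, NoMSR was not one in any line by limma. Of all genes tested, 0.0318% were in M1, 3.1% in M2 and 0.053% in M3. No gene (0%) was one in M4, where 2011 genes had an unadjusted p under 0.05, so the thresholds single out no gene there. The study applied them with edgeR, so its own list can differ. An exact permutation test of 3 against 3 libraries cannot go below p = 0.1, the value it gave for NoMSR in M2 and in M4 against the WT. The paper's text had named NoMSR as lower in M3 and in M4 on these same libraries, so its decrease in M4 here is no independent evidence. In M3 the change of -0.14 did not pass here. That text does not name NoMSR for M2, and the comparison of M2 shares its WT libraries with that of M4.

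NO21G00940 did not share the decrease. In M2 its values were 26.6, 36.0 and 59.8 TPM, against 33.9, 27.5 and 25.1 TPM in the WT. In M4 they were 24.2, 40.4 and 26.3 TPM. The high values were those of 1 library in each line, replicate 3 of M2 and replicate 2 of M4, and the other libraries lay between 24.2 and 36.0 TPM. NO21G00940 changed by 0.42 in M2 (SE 0.26, adjusted p = 0.239, interval -0.15 to 0.99) and by 0.05 in M4 (SE 0.26, adjusted p = 0.958, interval -0.52 to 0.62). M1 (28.7 to 36.0 TPM) and M3 (26.4 to 32.8 TPM) overlapped the WT too, with changes of 0.14 and 0.04 that did not pass (adjusted p = 0.829 and 0.966). A decrease of NO21G00940 as large as that of NoMSR lies outside its interval in M2 and in M4.

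**Figure D3:**
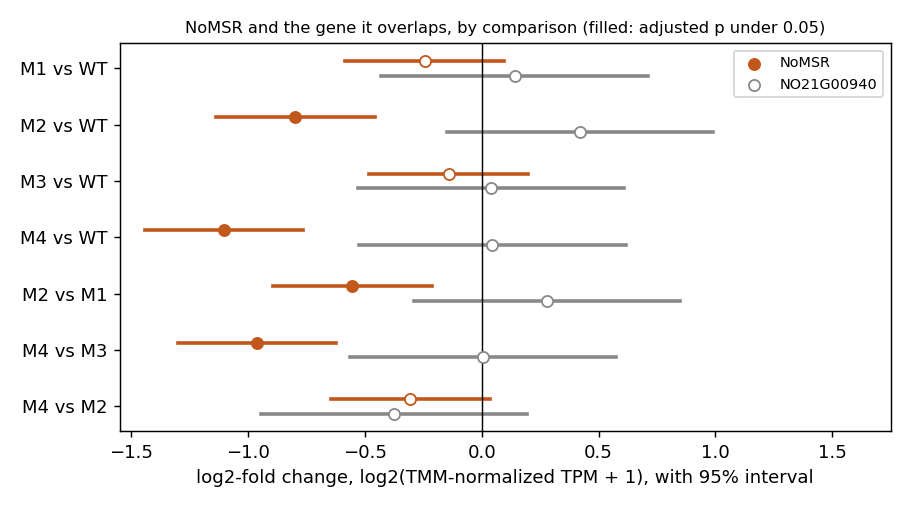
Log2-fold change with its 95% interval for NoMSR (orange) and NO21G00940 (grey) in 7 comparisons, filled where the adjusted p was under 0.05. NoMSR passes in M2 and M4 against the WT and in M2 against M1 and M4 against M3, with -0.55 the smallest of these changes, and NO21G00940 in none.

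The ratio of NoMSR to NO21G00940 puts both genes of a library on 1 scale, on which any factor common to the library drops out. It was 4.9, 3.6 and 2.3 in M2, against 7.4, 9.0 and 8.0 in the WT. In M4 it was 4.4, 2.3 and 4.8. The values were 6.6, 6.4 and 5.6 in M1 and 6.8, 7.0 and 7.6 in M3.

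The change of the log2 ratio was tested over the 736 overlapping pairs in which both genes were tested. It was -1.22 in M2 (SE 0.29, adjusted p = 0.0173), where 13.9% of pairs passed. This call was lost without replicate 3 of M2 (-0.93, adjusted p = 0.0609), the library with the high value of NO21G00940, and without replicate 2 of the WT (-1.14, adjusted p = 0.0633). In M4 the change was -1.15 (SE 0.29) with an adjusted p of 0.135, and 0% of pairs passed; 1 library, replicate 2, again held the lowest ratio, and without it the change was -0.82 (adjusted p = 0.355). M1 (-0.38, adjusted p = 0.678) and M3 (-0.18, adjusted p = 0.845) did not pass. Between lines of 1 knockout, the ratio changed by -0.83 in M2 relative to M1 (adjusted p = 0.105) and by -0.97 in M4 relative to M3 (adjusted p = 0.0622).

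The libraries in which NO21G00940 was high also stood apart for the gene next to it. NO21G00930 was listed at 0 in replicate 3 of M2 and in replicate 2 of M4, and at 73.2 to 121 TPM in the other 13. Jumps of this kind were not confined to this locus, as 332 tested genes were listed at 0 in 1 library and at 20 TPM or more in another of the same strain. Without both libraries, NO21G00940 changed by 0.11 in M2 and by -0.17 in M4 (adjusted p = 0.673 and 0.699), and the ratio of NoMSR to it changed by -0.93 in M2 (adjusted p = 0.0109) and by -0.82 in M4 (adjusted p = 0.102). NoMSR itself stood at 136 TPM in that library of M2, near the others of the line, and at 91.3 TPM in that of M4, its lowest library. The part of the neighbouring gene in these values was not tested.

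Of the 5 genes on either side of the pair, none passed the test in M4, where 5.33% of all genes did, and 4 passed in M2, where 34.7% did. That none passed in M4 does not show that none was lower. NO21G00930 lay below every WT library in all M4 libraries, at 0 to 88.8 TPM in M4, against 99.8 to 116 TPM in the WT, and with 1 of the 3 values at 0 its test had an SE of 1.82 (adjusted p = 0.478). NO21G00920 also lay below every WT library, at 514 to 519.5 TPM in M4, against 580.3 to 587 TPM in the WT (-0.18, adjusted p = 0.185). NO21G00900 rose in M2, to 316, 328 and 294 TPM, against 184, 144 and 164 TPM in the WT (log2-fold change 0.93, adjusted p = 7.49e-04). NO21G00970 rose by 0.23 in M2, and NO21G00920 fell by 0.34 and NO21G00980 fell by 0.40 there. In M1, where 1.73% of genes changed, NO21G00890 fell by 0.79 (adjusted p = 0.0323), a call that was lost without replicate 2 or 3 of M1 or replicate 1 or 3 of the WT. In M3, where 0.985% did, NO21G00900 rose by 0.76 (adjusted p = 0.0435), and that call was lost under most alternatives. The closest downstream gene, NO21G00960, changed by 0.25 in M2 (adjusted p = 0.115) and by 0.03 in M4 (adjusted p = 0.940).

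The genes whose values over the 15 libraries were most like those of NoMSR were sought among the 8256 other genes with a mean of at least 10 TPM. The measure was Pearson's r of log2(TPM + 1), given as a description: the libraries share strains and a common scaling, and the median r over all these genes was 0.034, with 90 in every 100 between -0.513 and 0.590. The highest r values were 0.949 for NO14G01730, 0.946 for NO16G01260, 0.944 for NO16G01250, 0.938 for NO23G00490 and 0.938 for NO08G01140. NO16G01260 is described as casein lytic proteinase B3, which in Arabidopsis is a chloroplast chaperone that dissolves protein aggregates. NO16G01250 lies head to head with it, 22 bases away. With each strain's mean removed, so that only differences between replicates remained, r with NoMSR was 0.811 for NO16G01260, 0.850 for NO23G00490 and 0.705 for NO14G01730. These differences are part of the r by which the genes were picked. The values are therefore a description, with no background over all genes taken. Within M3, for instance, NO16G01260 stood at 557, 832 and 1028 TPM, the order of NoMSR in the same libraries. For NO21G00940, r with NoMSR was -0.14.

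**Figure D4:**
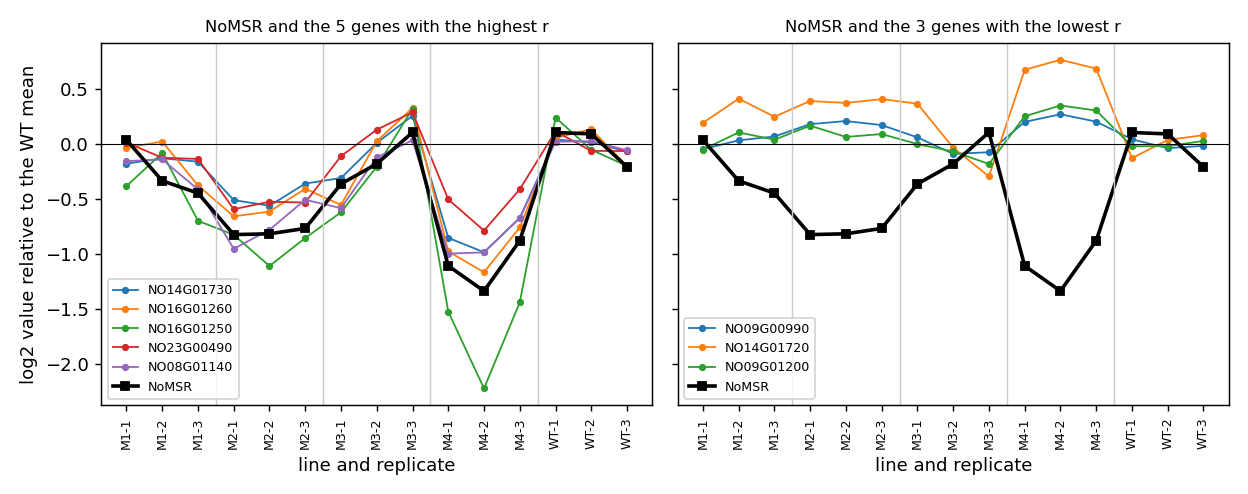
Log2 level relative to the WT mean in each of the 15 libraries, for NoMSR (black) with the 5 genes of highest Pearson r (left) and the 3 of lowest r (right). The 5 genes lie below the WT mean with NoMSR in M2 and M4 and differ between the replicates of M3 in the same order as NoMSR, whereas the 3 others lie above the WT mean in M4.

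The lowest r values were -0.930 for NO09G00990, -0.899 for NO14G01720 and -0.894 for NO09G01200. NO14G01720 lies 131 bases from NO14G01730, on the same strand. NO14G01720 stood at 47.6, 50.8 and 48.0 TPM in M4, against 26.9, 30.3 and 31.2 TPM in the WT. NO14G01730 stood at 365, 333 and 413 TPM in M4, against 678, 666 and 629 TPM in the WT. Both genes were picked for their likeness or unlikeness to NoMSR over these libraries, in which NoMSR was lowest in M4, so the side of the WT on which each lies in M4 follows from that choice and is given as a description, with no test.

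Genes with work related to that of NoMSR were taken as 3 lists, picked by their descriptions from the study's list of differentially expressed genes. Since that list was made on these libraries, its genes had already been chosen for a change, and their counts and medians are a description: neither the direction nor an excess over all genes is independent evidence. The protein quality list holds 10 genes for chaperones, their helpers and rotamases, the last of which help proteins fold by turning proline bonds. Of these, 5 fell and 1 rose in M2, where 18.2% of all genes fell and 16.5% rose. In M4, 5 fell and none rose, where 3.69% of genes fell and 1.64% rose. The highest change of the list in M4 was 0.95, of NO20G02120, which did not pass although all its M4 libraries lay above the WT. None passed in M1 or M3. The median log2-fold change of the list was -0.62 in M2 and -0.49 in M4, beside a median of about 0 over all genes (-0.0004 and -0.0063). Single libraries moved these medians: in M2 to -0.40 without replicate 1 of the WT, -0.93 without replicate 3 of the WT and -1.07 without replicate 2 of M2, and in M4 to -0.83 without replicate 2 of the WT, -0.88 without replicate 3 of the WT and -1.06 without replicate 3 of M4.

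The 5 that fell in M2 and in M4 had the same identity, though both comparisons share the WT libraries. Rotamase cyclophilin 2 (NO10G00200) stood at 17.6, 19.1 and 20.1 TPM in M2 and 19.6, 17.3 and 20.8 TPM in M4, against 47.2, 43.1 and 38.2 TPM in the WT. It fell by 1.14 in M2 and fell by 1.12 in M4 (adjusted p = 3.92e-04 and 0.00784), and it was the only one of the 24 genes on the lists that, like NoMSR, was lower both in M2 than in M1 and in M4 than in M3. Its position overlaps NO10G00190, and the part of that gene's reads in its value was not tested. A GrpE co-chaperone (NO19G01420), a kind that renews the Hsp70 chaperone, fell by 0.45 in M2 and fell by 1.11 in M4 (adjusted p = 0.0248 and 0.00727). Chaperonin 10 (NO05G01850), the lid of the chaperonin 60 barrel, fell by 1.37 in M2 and fell by 0.79 in M4 (adjusted p = 5.80e-05 and 0.0170).

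Heat shock protein 91 (NO02G03090) fell by 1.41 in M2 and fell by 0.92 in M4 (adjusted p = 5.91e-04 and 0.0373). Casein lytic proteinase B3 (NO16G01260) fell by 0.56 in M2 and fell by 0.96 in M4 (adjusted p = 0.0478 and 0.0220), and its call in M2 was lost under most alternatives, among them no filter on low values (adjusted p = 0.0501), the StringTie TPM (adjusted p = 0.0574) and quantile normalization (-0.39, adjusted p = 0.0738). The member that rose in M2 was cyclophilin-40 (NO07G03360), a rotamase that works with Hsp90, by 1.02. The count of 5 in M2 went to 3 with quantile normalization and without replicate 1 or 2 of M2 or replicate 1 or 2 of the WT. The count of 5 in M4 went to 2 without replicate 1 or 2 of M4 or replicate 1 or 2 of the WT, and to 1 without replicate 3 of M2 and replicate 2 of M4 together.

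The redox list holds 9 genes, among them thioredoxins, enzymes that act on reactive oxygen, an alternative oxidase and a glutathione S-transferase. Its median in M4 stood on the other side of 0 from the change of NoMSR. In M2, 7 of the 9 fell and 2 rose, with a median of -1.16. In M4, 1 fell, none rose and the median was 0.19. Thioredoxin F2 (NO02G01640), of the family that reduces methionine sulfoxide reductases, stood at 226, 253 and 285 TPM in M2, against 474, 555 and 476 TPM in the WT (log2-fold change -0.98, adjusted p = 5.63e-05). In M4 it stood at 549.6, 656 and 609 TPM (0.27, adjusted p = 0.169). NoMSR and thioredoxin F2 were thus both low in M2, but in M4 only NoMSR passed the test, and over the 15 libraries r between them was 0.11.

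The other redox genes that fell in M2 included ascorbate peroxidase 3 (NO26G00430), which removes hydrogen peroxide, by 1.80, Fe superoxide dismutase 2 (NO13G01830), which removes superoxide, by 1.72, and alternative oxidase 1A (NO02G00290), a bypass of the mitochondrial electron chain in plants, by 1.56. Ascorbate peroxidase 3 was the member that fell in M4, by 0.58 (adjusted p = 0.0447), and that call was lost when any library of M4 or of the WT was left out, with adjusted p up to 0.135. In M1, glutathione S-transferase 6 (NO08G00510) fell by 0.81 (adjusted p = 0.0267), a call lost without replicate 2 or 3 of M1 or any WT replicate; none passed in M3. In M4 relative to M2, 7 of the 9 redox genes were higher and 2 lower, with a median difference of 1.35, whereas NoMSR differed by -0.31 and did not pass. Of all genes, 22.3% were higher and 23.6% lower in M4 than in M2.

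**Figure D5:**
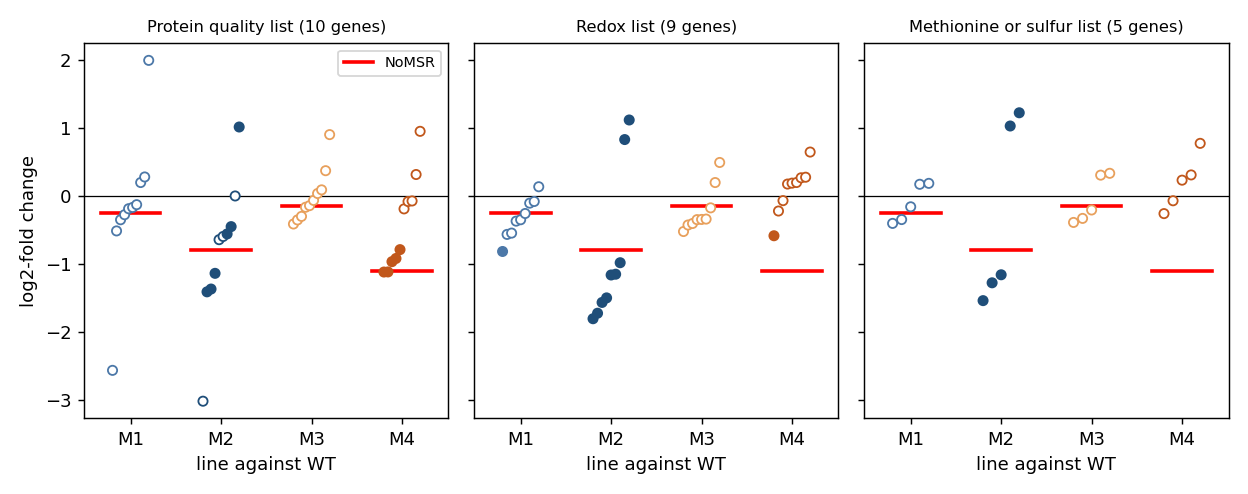
Log2-fold change against the WT of the members of the protein quality, redox and methionine or sulfur lists in each line, filled where the adjusted p was under 0.05, with NoMSR as a red line. In M4, 5 of the 10 protein quality genes pass, with changes of -1.12 to -0.79 beside -1.10 for NoMSR. Over the whole lists in M4, the median is -0.49 for protein quality (-1.12 to 0.95) and 0.19 for redox (-0.58 to 0.65).

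The methionine or sulfur list holds 5 genes. In M2, 3 fell and 2 rose, and none passed in the other lines. Those that fell in M2 were methionine aminopeptidase 1A (NO17G00100), which cuts the first methionine from proteins, by 1.54, and the sulfate transporters NO11G01800, by 1.27, and NO10G00770, by 1.16. Mercaptopyruvate sulfurtransferase 1 (NO08G00750) rose by 1.23 there, and a sulfite exporter family gene (NO09G03220) rose by 1.03 and was low, at 2.77 to 4.42 TPM in M2, against 1.22 to 1.34 TPM in the WT. In M4 the list had a median of 0.23, with changes of -0.26 to 0.78.

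The scaling between libraries did not set the direction for NoMSR. With the TPM of each library as deposited, before that scaling, NoMSR changed by -0.70 in M2 and by -1.06 in M4, and with quantile normalization by -0.68 and -1.07. The share of organelle transcripts, which can differ with how RNA is selected, was 0.0271% to 0.0318% in M2, 0.0600% to 0.0750% in M4 and 0.0330% to 0.0476% in the WT. Whether this share bears on the level of NoMSR was not tested. Rescaled on nuclear genes alone, NoMSR changed by -0.70 in M2 and by -1.06 in M4. With so small an organelle share, this setting nearly repeats the TPM as deposited and is no separate check.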

How the data were processed

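RNA of 15 cultures was sequenced. Per the paper's methods, reads from a NEBNext Ultra library were processed with nf-core/rnaseq, aligned with STAR and joined with Trinity by the RSEM2 method; versions are not given in the sources used here. The values used are TMM-normalized TPM, a signal deposited by the authors as 1 matrix, which equals the deposited StringTie TPM of each library times 1 factor (0.947 to 1.05). The coverage and the FPKM that the authors deposited beside that TPM have a ratio, a relative measure of depth, of 4.69 to 6.17 (median 5.26). No read counts were used, so no counting error is given, and the paper's edgeR could not be run.

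Genes with a mean of at least 1 (9440) were tested on the scale log2(value + 1) by limma 3.58.1 (R 4.3.3), with 1 mean a strain, a variance trend and Benjamini-Hochberg adjustment over all genes; fold changes of low genes are understated on this scale. A gene rose or fell where the adjusted p was under 0.05. Ratios were fitted over all overlapping pairs. Named genes are NoMSR, NO21G00940, the edited genes, 5 neighbours on either side, the genes of highest (5) and lowest (3) Pearson r and the members of 3 lists; NO21G00930's libraries were singled out after their values were seen. The members and lists were chosen with earlier results of these data known. Descriptions come from the study's gene list and read as Arabidopsis names. Alternatives were other pseudocounts, filters, scalings, fits, a replicate block and leaving out libraries. Figures and tables were made with Python 3.11.15, numpy 2.4.6, pandas 2.3.3, scipy 1.17.1 and matplotlib 3.10.9.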

Additional observations from a re-analysis of the deposited data

Results flagged for a closer look

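The level of NoMSR differed between lines with the same gene edited. NoMSR was lower in M2 than in M1 by a log2 difference of -0.55 (adjusted p = 0.0217 by limma), and in M4 than in M3 by a log2 difference of -0.96 (adjusted p = 0.00199 by limma); each difference was tested directly.

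Members of the lists differed between lines of 1 knockout too. Of the 9 redox genes, 8 differed between M2 and M1 and 6 between M4 and M3. Of the 10 protein quality genes, 4 differed between M2 and M1 and 3 between M4 and M3. All 5 methionine or sulfur genes differed between M2 and M1, and 2 between M4 and M3. Over all genes, 25.9% differed between M2 and M1 and 25.6% between M4 and M3. The list genes had been chosen for a change in these same libraries, so an excess over all genes is no independent evidence.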

How the results depend on the processing

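Over 27 alternatives, NoMSR kept its call in M2 against the WT (-0.90 to -0.68, adjusted p = 7.66e-04 to 0.0110) and in M4 against M3 (-1.08 to -0.84, adjusted p = 3.96e-04 to 0.0212). In M4 against the WT (-1.22 to -0.99) it kept the call in 26, with -0.99 and adjusted p = 0.0556 without the libraries that list NO21G00930 at 0. The exact permutation test could not go below 0.1 for these differences (-0.80 in M2 and -1.10 in M4 against the WT, -0.55 in M2 against M1, -0.96 in M4 against M3). Leaving out each library gave -0.65 to -0.41 for M2 against M1 and -0.62 to -0.47 for M1 and M2 against the WT. M4 against M2 passed with the StringTie TPM (-0.36, adjusted p = 0.0468), quantile normalization (-0.40, adjusted p = 0.0286) and nuclear genes alone (-0.36, adjusted p = 0.0470). The setting of nuclear genes alone nearly repeats the StringTie TPM.

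The ratio to NO21G00940 in M2 ran from -1.47 to -0.93 when each library was left out, and it did not pass in a fit of M2 and WT libraries alone (-1.22, adjusted p = 0.0617). With NO21G00930 added to NO21G00940, chosen after seeing the data and inexact since TPM of neighbours do not add up, it was -0.39 (adjusted p = 0.513). In that setting the ratio in M4 was -0.33 (adjusted p = 0.719). The sum of both genes itself changed by -0.41 in M2 and by -0.78 in M4 (adjusted p = 0.434 and 0.255). In M4 against M3 the ratio passed with a pseudocount of 5 (-0.94, adjusted p = 0.0454). Without the libraries that list NO21G00930 at 0, also chosen after seeing the data, the other calls of NoMSR held.

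The number of genes changed moved more. In M1 against the WT it was 163, but 21 in a fit of both groups alone, 64 with the replicate block, 724 with array weights, 37 without the libraries that list NO21G00930 at 0 and 28 to 254 when each library was left out. In M3 the 93 became 53 with quantile normalization, 10 in a fit of both groups, 17 with the block, 49 without the trend, 1371 with array weights, 8 without those libraries and 10 to 452. In M4 the 503 became 129, 322 with the block, 809 with array weights, 30 without those libraries and 78 to 650. In M2 against M1 the 2443 became 3849 with array weights and 1512 to 2768 without each library. In M4 against M3 the 2421 became 1512 in a fit of both groups, 1144 without those libraries and 1392 to 2605 without each library.

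With the StringTie TPM the split of lower and higher genes was 1333 and 2048 in M2, against 1717 and 1554 as reported, 239 and 203 in M4, against 348 and 155, 38 and 43 in M3, against 32 and 61, and 1058 and 1397 in M2 against M1, against 1331 and 1112. The replicate numbers did not pair the libraries: deviations of same-numbered libraries correlated at -0.0744 to 0.0868. With the block NoMSR kept its calls in M2 and in M4.

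Values without read counts limit what can be said of low genes, and 3 libraries a strain, 1 transformant a line and reads shared by NoMSR and NO21G00940 limit the rest. The cause of each change with a setting was not tested.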

Other observations

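The members NO05G02550 and NO03G01460 of the protein quality list, both described as heat shock proteins of the Hsp90 kind, jumped between libraries of 1 strain in a way NoMSR did not. NO05G02550 stood at 712 TPM in replicate 2 of M3, 436 TPM in replicate 3 of M4 and 833 TPM in replicate 1 of the WT, and at 1.20 to 3.53 TPM in the other 12 libraries. NO03G01460 stood at 739 to 1828 TPM in 5 libraries (replicates 2 and 3 of M1, 2 of M2, 3 of M3 and 3 of M4) and at 77.3 to 201 TPM in the other 10. In replicate 3 of M4 both were high. Genes of 1 description may share reads, so their values are uncertain, and whether that bears on the jumps was not tested. Neither passed in any line, and each counts among the members of the list that did not pass.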
